A study of Mus musculus with 10 samples.

Results

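Small nucleolar RNA (snoRNA) genes and the noncoding genes that host them were followed through maps of RNA polymerase II in Th1 cells of the mouse, a class of CD4+ helper cell known for secreting interferon gamma. Members were taken by gene symbol from the 6 deposited tables of promoter peaks, in which each peak carries the name of 1 gene. They were all symbols that begin with Snora or Snord, all that begin with Snhg and a digit, and Gas5. This gave 70 of 10419 named genes, of which 60 were snoRNA genes (39 of the C/D box class, named Snord, and 21 of the H/ACA box class, named Snora) and 10 were noncoding hosts. When peaks of different libraries that overlap by at least 1 bp were merged, the members lay in 65 of 10991 regions. The groups were resting cells without restimulation (NR) and the same cells after 30 min or 2 h of it, with 2 chromatin immunoprecipitation (ChIP) libraries in each. All came from Th1 cells of the mouse strain Balb/c DO11.10, whose T cells carry a transgenic receptor for ovalbumin. CD4+ T cells had been primed with antibodies to CD3 and CD28 under Th1 conditions, grown with an interleukin 2 analogue and kept for a day without it. Restimulation was with anti-CD3 on the plate and anti-CD28 in solution, and polymerase was precipitated with the antibody 8WG16. The labels do not say whether replicates came from separate animals or cultures, so each p-value here is set against library-to-library spread, part of which may be technical.

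snoRNAs guide the chemical modification of ribosomal RNA in the nucleolus. C/D box snoRNAs direct methylation of the ribose and H/ACA box snoRNAs direct the change of uridine to pseudouridine, while a few take part in cutting the ribosomal RNA precursor. In mammals most are not transcribed from promoters of their own: they lie in introns of a host gene, are cut out of its spliced introns and so depend on polymerase that passes through the host. Hosts are often genes of ribosomal proteins, translation factors and nucleolar proteins. Others are genes such as Gas5 and the Snhg (small nucleolar RNA host gene) family, whose spliced RNA encodes no known protein. Many host promoters belong to the terminal oligopyrimidine class, whose RNAs begin with a cytidine followed by a run of pyrimidines.

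Each promoter peak in these data carries a name, but the DNA under it belongs to a host. The starts of some noncoding hosts are therefore shown first, since called polymerase peaks lay over them in every library. Each line runs from 40 bases before the annotated start to 30 bases from it, from RefSeq (build GRCm38.p6), with the letters TATAAA and the pyrimidine run CTTTC (or else CTTCC) in capitals where they occur on the strand shown.
Gas5, upstream start (chr1:161034561-161034630, plus strand): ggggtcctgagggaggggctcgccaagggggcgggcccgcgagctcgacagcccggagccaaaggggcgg
Gas5, downstream start (chr1:161035126-161035195, plus strand): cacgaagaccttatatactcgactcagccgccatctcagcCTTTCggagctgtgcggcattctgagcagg
Snhg12 (chr4:132308638-132308707, plus strand): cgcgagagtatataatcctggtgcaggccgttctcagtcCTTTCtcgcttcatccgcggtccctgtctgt
Snhg8 (chr3:123508307-123508376, minus strand): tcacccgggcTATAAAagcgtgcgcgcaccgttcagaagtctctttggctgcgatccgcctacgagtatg
Snhg5 (chr9:88522868-88522937, minus strand): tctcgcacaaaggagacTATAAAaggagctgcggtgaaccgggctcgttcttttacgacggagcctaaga
Snhg3 (chr4:132353657-132353726, minus strand): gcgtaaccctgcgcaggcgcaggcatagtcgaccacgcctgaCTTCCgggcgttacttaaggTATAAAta
Snhg1 (chr19:8723447-8723516, plus strand): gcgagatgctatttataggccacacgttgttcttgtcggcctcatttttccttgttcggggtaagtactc

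In the Snhg3 line the TATAAA lies downstream of the annotated start, while in the Snhg8 and Snhg5 lines it lies upstream. All 70 bases of each of these stretches lay inside a called peak in all 6 libraries. The same held for the stretches of Zfas1 and Dancr, which hold none of the letters marked in capitals and are not printed. The summit, the highest point of a peak, held its place at Gas5. It lay 39 and 34 bp downstream of the downstream Gas5 start in the NR libraries, 37 and 30 bp downstream at 30 min, and 57 and 50 bp downstream at 2 h. Measured from the upstream Gas5 start the same summits lay 595 to 622 bp away, so in every library the summit stood at the start with the pyrimidine run and not at the GC-rich one, though the called peak covered both. At Snhg12 the summits lay between 62 bp before and 32 bp after the start, and at Snhg5 between 37 and 84 bp after it.

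RefSeq promoters, which run from 250 bases before to 50 bases after a start, were found for 18 of 21 noncoding hosts and 31 of 40 protein-coding hosts under 10 kb. TATAAA, the core of the TATA box, was present on either strand in 7 of 18 noncoding hosts (38.9%), 6 of 31 protein-coding hosts (19.4%) and 13.6% of all 32851 promoters. CCGGAA, the core bound by ETS factors, was present in 38.9% of noncoding hosts, 45.2% of protein-coding hosts and 14.9% of all promoters. A host with several promoters counts as having a motif if any holds it, which raises its share. The E-box CACGTG stood in 11.1% of noncoding hosts, 9.68% of protein-coding hosts and 7.15% of all promoters. TGANTCA, bound by AP-1, stood in 0 noncoding hosts, 3.23% of protein-coding hosts and 7.81% of all promoters. GGGGCGG, bound by Sp1, stood in 38.9%, 25.8% and 23.2% of the same 3 sets. CTTTC stood in 61.1%, 71.0% and 57.3%, and CTTCC, which overlaps the reverse of CCGGAA, in 72.2%, 83.9% and 71.4%. On the strand that reads like the RNA, CTTTC or CTTCC was also sought beginning within 10 bases of the start, a window chosen after the data were seen. It stood in 7 of 18 noncoding hosts (38.9%), 6 of 31 protein-coding hosts (19.4%) and 8.30% of all promoters. These are descriptions of letters in a window, with no test.

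The value compared below is called length, the number of bp under the authors' promoter peaks, because the lists hold no read counts. Relative depth, judged from the background level of each list and scaled to NR replicate 1, was 1 and 8.98 in the NR libraries, 2.39 and 7.09 at 30 min and 3.76 and 8.43 at 2 h. NR replicate 2 was thus the deepest library and 30 min replicate 1 the shallowest of the restimulated ones. The labelled cell type held: all 6 T cell markers had a peak in every library, 4 or 5 of 5 Th1 markers did, and no B cell, myeloid, natural killer or erythroid marker did. The CD8 marker Cd8b1 had 314, 521 and 576 bp in the replicates 2 of NR, 30 min and 2 h, and no peak in the replicates 1.

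Names of snoRNA genes came and went after restimulation, mostly in regions that had a peak in both groups, though not always over the snoRNA gene itself. An assigned peak in all 6 libraries was found for 20 of 70 members (28.6%), against 7410 of all 10419 genes (71.1%). By region, 47 of 65 members (72.3%) had a peak in all 6 libraries, against 7728 of all 10991 regions (70.3%). The name changed instead: 32 of the 65 regions carried the symbol of a gene outside the family in some library, and of the 47 regions with a peak in all 6 libraries 9 carried the same symbols throughout. Regions that bore a snoRNA name numbered 22 and 22 in the NR libraries, 33 and 41 at 30 min, and 40 and 40 at 2 h. Regions that bore the name of a noncoding host numbered 9 and 9, then 7 and 6, then 6 and 6.

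At 30 min, 7 members had a peak in both libraries and in neither NR library: Snora3, Snord16a, Snord1c, Snord2, Snord4a, Snord57 and Snord72. Over all genes this happened to 0.374%. The reverse, a name present throughout NR cells and absent from the 30 min lists, was seen for 5 members (Gas5, Snora44, Snora81, Snord65 and Snord99), against 0.365% of all genes. By region both counts were 0, against 0.4% and 0.0182% of all regions. At 2 h, 16 member names were in both libraries and neither NR library (2.57% of all genes), and 8 were lost (0.662%): the 5 above with Snhg20, Snhg4 and Snord33. Of those 16 names, 10 lay in a region that already had a peak in both NR libraries under another name, and for all 8 lost names the region kept a peak in both 2 h libraries. The names in NR cells at those 10 regions were mostly those of hosts: Eif4a2 became Snord2, Nop56 became Snord57, Rpl27a became Snora3, Rpl4 became Snord16a, Rpl37 was joined by Snord72 and Gnl3 by Snord19. Between 2 h and 30 min no member name and no member region was gained or lost, against 0.71% of names and 0.91% of regions gained, and 0.096% and 0.0455% lost, over all.

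Gas5, whose RNA accumulates in growth-arrested cells and whose introns carry a cluster of C/D box snoRNAs, is an example of such a change of name. Peaks named Gas5 had 0 and 0 bp at 30 min and 0 and 0 bp at 2 h, against 3300 and 2947 bp in NR cells. Those named Snord47, a C/D box snoRNA in a late Gas5 intron 3491 bp from the upstream start, had 7106 and 8298 bp at 30 min and 8269 and 8446 bp at 2 h, against 2458 and 2891 bp in NR cells. The locus held 2 and 1 peaks in the 30 min libraries and 1 and 1 at 2 h, against 2 and 3 in NR cells. The region that holds both (chromosome 1, 161033894 to 161042348, mm10) had 7106 and 8298 bp at 30 min and 8269 and 8446 bp at 2 h, against 5758 and 5838 bp in NR cells. No library of a restimulated group overlapped the NR libraries, and 100% of the Gas5 gene was called in all 4 restimulated libraries, against 66.5% and 70.6% in NR cells. By region, the log2 change was 0.25 ± 0.28 (SE) at 30 min (limma, adjusted p = 0.831) and 0.06 ± 0.28 at 2 h (adjusted p = 0.935), after a library-wide shift was removed. The name Gas5 itself passed the test as shorter at 2 h (limma, adjusted p = 0.0500, just inside the threshold of 0.05), and missed it at 30 min (adjusted p = 0.0720). That call concerns the name. By position, the window ran from 1000 bp before the start to the gene's end, as the deposited lists and not RefSeq place them. Gas5 then had 3872 and 3872 bp at 2 h against 3056 and 2896 bp in NR cells. The log2 change was -0.10 ± 0.30 (limma, adjusted p = 0.902), or 0.37 before centring. The same 3872 bp in 30 min replicate 2 points to a full window, which caps the change that can be seen. Over all alternatives the adjusted p of the name at 2 h ran from 0.00986 to 0.902.

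The other noncoding hosts fell into those already widely covered in NR cells and those covered later. Snhg12, host of 4 listed snoRNAs, was among the highest peaks of every list, at the 98.3rd to 100th percentile of fold enrichment over background. Its region (chromosome 4, 132308308 to 132313281) had 2650 and 3183 bp in NR cells, then 4354 and 4903 bp at 30 min, and 4746 and 4962 bp at 2 h. In NR cells that DNA was split between peaks named Snhg12, Snora44 and Snord99, and in the restimulated cells 1 name, Snhg12, covered all of it. Snhg3, which hosts a pair of H/ACA box snoRNAs, had 1438 and 1459 bp in NR cells, then 2003 and 5730 bp at 30 min, and 5257 and 5330 bp at 2 h. Snhg5 had 1854 and 1922 bp in NR cells, then 1857 and 5052 bp at 30 min, and 4611 and 4717 bp at 2 h. In both, 30 min replicate 1 lay near the NR libraries while 30 min replicate 2 lay with the 2 h libraries. Neither passed the test at 2 h (Snhg3 log2 change 1.34 ± 0.27, limma, adjusted p = 0.130; Snhg5 0.80 ± 0.24, adjusted p = 0.290).

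Snhg7 and Dancr had larger log2 changes at 2 h than these, and neither passed. The Snhg7 region, labelled Snhg7, Snora17 or Snora43 depending on the library, had 1123 and 1368 bp in NR cells, then 2368 and 7861 bp at 30 min, and 6879 and 7879 bp at 2 h (log2 change at 2 h 2.02 ± 0.30, limma, adjusted p = 0.0747). Dancr, host of Snora26, had 1333 and 971 bp in NR cells, then 3435 and 4654 bp at 30 min, and 5597 and 6456 bp at 2 h (1.84 ± 0.27, adjusted p = 0.0718). Their groups did not overlap in either comparison with NR. The Snhg1 region, which carries the name Snord22, had 4455 and 3526 bp in NR cells, then 5747 and 6752 bp at 30 min, and 5899 and 6610 bp at 2 h. In NR cells part of it was named after Slc3a2, the neighbouring gene of an amino acid transporter subunit.

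Zfas1, Snhg8 and Snord104 differed little. Zfas1, host of Snord12, had 4607 and 5394 bp in NR cells, then 5108 and 5891 bp at 30 min, and 6322 and 6460 bp at 2 h. Snhg8, host of Snora24, had 3963 and 4645 bp, then 4299 and 6268 bp, then 5221 and 6323 bp. Snord104, inside a host of 297 bp named Gm36220, had 3286 and 3045 bp, then 2507 and 3532 bp, then 3398 and 3529 bp. These 3 loci gave log2 changes between -0.33 and 0.12 (SE 0.17 to 0.25) in the comparisons with NR and none passed. Before centring, both 2 h libraries lay above both NR libraries at each of them, and the log2 changes at 2 h were 0.35 at Zfas1, 0.41 at Snhg8 and 0.13 at Snord104, against -0.11, -0.05 and -0.33 after it. All were already broad in NR cells, where the median over all regions was 795 and 959 bp. Snhg17, at the 22.3rd to 59.8th percentile of fold enrichment, was the weakest host with a name in all 6 libraries, at 530 and 860 bp in NR cells, then 893 and 1499 bp at 30 min, and 1592 and 1988 bp at 2 h. Snhg10 had 422 and 1069 bp by region in NR cells, 335 and 1289 bp at 30 min, and 966 and 1651 bp at 2 h, partly under the name of its neighbour Glrx5. Snhg20 had 770 and 788 bp, then 635 and 1035 bp, then 1101 and 1397 bp, and in 30 min replicate 2 and at 2 h its peaks were named Mir6516. The Snhg4 region, which also holds the promoter of Matr3 and the microRNA gene Mir1949, had 2277 and 2910 bp, then 3107 and 10416 bp, then 9605 and 10838 bp.

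**Figure D1:**
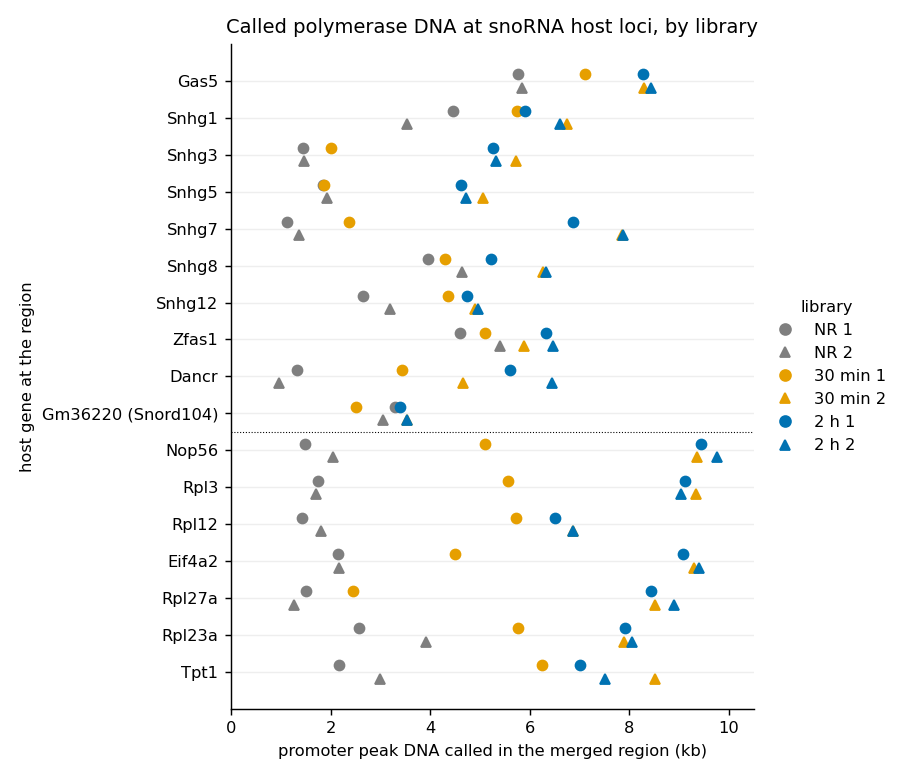
Called promoter DNA (kb) in the merged region at 17 host loci, with noncoding hosts above the dotted line and protein-coding hosts under it. Circles are replicates 1 and triangles replicates 2. At Nop56 and Rpl3 the NR libraries reach at most 2041 bp and the restimulated libraries at least 5107 bp, while at Gm36220 (Snord104) the 30 min and NR libraries overlap. Where marks coincide, as at Rpl12 and Snhg7, the 2 h mark covers the 30 min one.

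Longer called DNA at 30 min was found at protein-coding hosts, with 1 region past the test. Nop56, which encodes a core protein of C/D box snoRNA particles and carries C/D box snoRNAs in its own introns, had 5107 and 9369 bp at 30 min against 1489 and 2041 bp in NR cells (chromosome 2, 130272112 to 130282585). Its peaks were named Nop56 in NR cells and Snord57 at 30 min and 2 h, with Snord110 and Nop56 as further names in 30 min replicate 1. The log2 change was 1.78 ± 0.17 (limma, adjusted p = 0.0421). This was 1 of 57 member regions tested, against 0.166% of all 10261 regions, and 0 were shorter, as over all regions. At 2 h the Nop56 region had 9435 and 9759 bp against the same NR values, a change of 1.93 ± 0.17 (adjusted p = 0.0265). Rpl3, a ribosomal protein gene of the large subunit with Snord43 and Snord83b in its introns, passed at 2 h, with 9126 and 9044 bp against 1750 and 1706 bp in NR cells (1.87 ± 0.20, adjusted p = 0.0419). At 30 min Rpl3 had 5572 and 9332 bp and missed the threshold (1.85 ± 0.20, adjusted p = 0.0512). These were the 2 of 57 member regions called at 2 h, against 0.448% of all regions, and 0 were shorter, against 0.00975%. Over all alternatives the adjusted p of Nop56 ran from 0.0314 to 0.260 at 30 min and from 0.0119 to 0.263 at 2 h, and that of Rpl3 at 2 h reached 0.306. No region was called without NR replicate 1, without NR replicate 2, or without either 2 h library. Without 30 min replicate 1 Nop56 missed the threshold at 30 min (adjusted p = 0.0593), while the counts were 3 at 30 min and 10 at 2 h, and without 30 min replicate 2 they were 5 and 10.

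At other host loci the lengths were similar and none passed. Eif4a2, a gene of an RNA helicase of translation initiation and host of Snord2 and Snora81, had 4490 and 9299 bp at 30 min and 9082 and 9397 bp at 2 h, against 2149 and 2173 bp in NR cells (limma, adjusted p = 0.0863 and 0.0510). Rpl12, host of Snora65, had 5726 and 6869 bp at 30 min and 6514 and 6863 bp at 2 h, against 1421 and 1801 bp (adjusted p = 0.0610 and 0.0552). Tpt1, which encodes the abundant translationally controlled tumour protein and hosts Snora31, had 6253 and 8508 bp at 30 min and 7018 and 7521 bp at 2 h, against 2172 and 2998 bp (adjusted p = 0.0863 and 0.124). In these loci all 4 restimulated libraries lay above both NR libraries. Rpl27a with Snora3 had 2443 and 8524 bp at 30 min and 8446 and 8892 bp at 2 h, against 1501 and 1271 bp. The region of Rpl23a, host of Snord4a, Snord42a and Snord42b, had 5764 and 7886 bp at 30 min and 7906 and 8050 bp at 2 h, against 2560 and 3908 bp. In NR cells part of it bore the names Nek8 and Mir7653, and Rpl23a by position had 555 and 730 bp there. Rps12 with Snora33 had 6987 and 9516 bp at 30 min and 8187 and 8352 bp at 2 h, against 3956 and 6379 bp, and Rpsa with Snora62, at the gene of a small-subunit ribosomal protein, had 6830 and 8650 bp and 8310 and 8653 bp, against 2366 and 4623 bp.

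Snord87 in the noncoding host Snhg6 had 4197 and 6416 bp at 30 min and 6093 and 6488 bp at 2 h, against 2301 and 4253 bp in NR cells. Snord49b, in the noncoding gene 2410006H16Rik together with Snord65, had 5432 and 8059 bp at 30 min and 6700 and 7643 bp at 2 h, against 1888 and 1777 bp. The NR peaks named Snord65, of 1526 and 3129 bp, lay in the same region, which came to 3414 and 4906 bp in NR cells. The region of Rpl4 with Snord16a had 3320 and 7451 bp at 30 min and 5697 and 7623 bp at 2 h, against 1803 and 2549 bp in NR cells, and the groups did not overlap. Part of that region bore the name Snapc5, save in 2 h replicate 2. Gnl3, which encodes the nucleolar protein nucleostemin and hosts Snord19 and Snord69, had 1644 and 9402 bp at 30 min and 4923 and 10611 bp at 2 h, against 1097 and 1149 bp. Rpl37 with Snord72 had 1719 and 7663 bp at 30 min and 6852 and 6827 bp at 2 h, against 1828 and 1613 bp, so its 30 min and NR libraries overlapped. Snhg16, host of Snord1c, had 1218 and 2789 bp at 30 min and 2223 and 2488 bp at 2 h, against 945 and 777 bp in NR cells. Its NR peaks bore the name 1810032O08Rik, with summits 109 and 54 bp downstream of the Snhg16 start.

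Over the 57 tested regions, called DNA was longer in restimulated than in NR cells at a larger share of members than of all regions. At 30 min the groups did not overlap and were longer at 35 of 57 regions (61.4%), against 11.6% of all regions, and at 2 h at 51 of 57 (89.5%), against 52.8%. No member region was shorter without overlap, against 0.526% of all regions at 30 min and 1.57% at 2 h. The median log2 change was 0.88 at 30 min and 0.85 at 2 h, against -0.03 and -0.02 over all regions. The choice of regions is not free of length, since a region entered through a snoRNA name in any library and a peak that reaches further into a host more readily takes such a name. Centring removed a library-wide shift of 0.15 at 30 min and 0.46 at 2 h on the log2 scale.

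**Figure D2:**
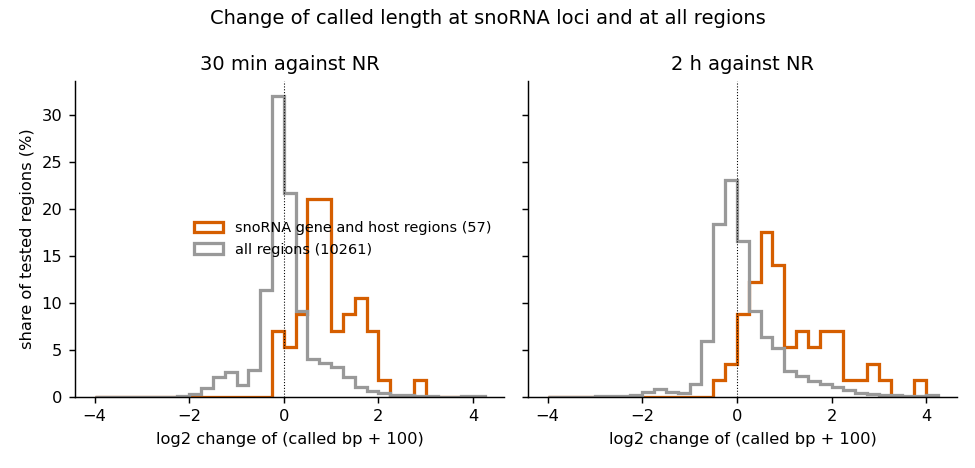
Log2 change of called length plus 100 bp, centred, for 57 snoRNA gene and host regions and for all 10261 regions tested, as shares of each set, at 30 min against NR (left) and 2 h against NR (right). The member regions are shifted to positive values, with medians of 0.88 and 0.85, while all regions centre near 0.

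When values were taken by name rather than by region, more calls were made. Since 4 of the called names had no peak in NR cells and entered the test only through the restimulated libraries, these counts are given as a description and nothing is read from them against the background. At 30 min 6 members passed as longer (Snord2, Snord1c, Snora3, Snord57, Snora65 and Snora78) and 0 as shorter, of 57 tested, against 0.232% and 0.0101% of all genes. Groups did not overlap for 25 longer names (43.9%, against 11.5% of all) and 7 shorter ones (against 1.16%). At 2 h 7 passed as longer (the same 6 and 1 that is not reported here) and 1, Gas5, as shorter, against 0.373% and 0.0606%. Groups did not overlap for 43 longer names (75.4%, against 52.3% of all) and 8 shorter ones (against 2.09%). The counts of called names at 30 min and 2 h fell to 1 or 2 when either 2 h library or NR replicate 1 was left out, and to 4 and 5 when NR replicate 2 was. They came to 11 and 16 with 30 min replicate 1 left out, while leaving out 30 min replicate 2 gave 9 and 17. Snord2 had 4490 and 9299 bp at 30 min and 9082 and 9397 bp at 2 h, and no NR peak bore its name (limma, adjusted p = 0.00102 and 0.000878). Its NR values are then the pseudocount, which adds no measured spread, so such a p may be too small, and the same holds for Snord1c, Snora3 and Snord57. Snora65 had 5726 and 6869 bp at 30 min and 6514 and 6863 bp at 2 h, against 269 and 522 bp in NR cells, where the rest of the Rpl12 peak bore the host's name (log2 change 3.57 ± 0.24 and 3.35 ± 0.24, adjusted p = 0.0107 and 0.0121). Snora78, inside the short host Snhg9, had 4786 and 6745 bp at 30 min and 6640 and 6983 bp at 2 h, against 1338 and 1507 bp (1.77 ± 0.18 and 1.71 ± 0.18, adjusted p = 0.0467 and 0.0379). Snhg9 lies within the span of the ribosomal protein gene Rps2, host of Snora64, and was already 100% and 97.7% called in NR cells. Rps2 was 35.1% and 47.3% called in NR cells, 88.5% and 100% at 30 min, and 100% and 100% at 2 h. By position none of these 6 names passed, with log2 changes between 0.10 for Snora78 and 2.84 for Snord57 at 2 h. The 3 of 69 members that passed by position in both comparisons were Snord83b, Snord4a and Snora43, against 0.158% of all genes at 30 min and 0.256% at 2 h. Around Snord83b 1172 and 2001 bp were called at 30 min and 1886 and 2001 bp at 2 h, against 0 and 0 bp in NR cells, and Snord4a and Snora43 likewise had 0 and 0 bp in NR cells. All 3 thus entered through the restimulated libraries, and nothing is read from their count against the background. A short gene's window by position holds 2001 bp at most, and that of a longer gene is capped by its own length.

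Counted by position, whatever the name, snoRNA genes came to lie inside called promoter peaks after restimulation and none left them. Of 132 snoRNA genes that RefSeq places on the mouse chromosomes (93 of the C/D and 39 of the H/ACA class), 18 and 21 lay wholly inside a promoter peak in the NR libraries. At 30 min the numbers were 47 and 71, and at 2 h 68 and 74. A gene inside a peak in both restimulated libraries and in neither NR library was seen 23 times at 30 min and 42 times at 2 h, and the reverse 0 times. At fixed distances from the start, chosen after the data were seen, the same was counted for stretches of 100 bp. At 1500 bp it was seen for 10 of 51 hosts under 10 kb (19.6%) at 30 min and 34 (66.7%) at 2 h, against 1.53% and 5.11% of 3075 other genes. At 3000 bp it was seen for 4 of 31 hosts (12.9%) and 15 (48.4%), against 0.826% and 2.81% of 2422 other genes. At 500 bp the values were 18.5% and 29.6% of 54 hosts, against 3.05% and 12.5% of 3374 other genes. These shares were not tested. Among the snoRNA genes, the C/D class gained 14 and 29 and the H/ACA class 9 and 13. In all 6 libraries 15 were inside a peak, and 54 were in none, 21 of which have no host by position. These counts do not depend on the names, though the promoter tables hold only peaks within 1000 bp of an annotated start, which can be that of a snoRNA gene.

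Coverage of snoRNA genes differed with their distance from the host's start. In no class was a gene inside a peak in both 2 h libraries and in neither 30 min library. Of 22 snoRNA genes that begin under 1000 bp from the start of their host, 12 and 12 were inside a peak in NR cells, 18 and 21 after 30 min, and 21 and 22 after 2 h. Of 23 at 1000 to 2000 bp, 3 and 4 were inside in NR cells, 15 and 21 at 30 min, and 21 and 21 at 2 h. Among 33 at 2000 to 4000 bp the numbers were 1 and 3, then 11 and 23, then 23 and 26. Among 31 at 4000 bp or more they were 1 and 1, then 2 and 5, then 2 and 4. The farthest class thus stayed mostly outside called promoter peaks, and the 2 middle classes held most of the genes that came in. Peaks outside the promoter tables were not counted. Of 57 hosts under 10 kb, 1 and 1 held a summit of that kind in NR cells, 5 and 6 at 30 min, and 10 and 7 at 2 h. Among 3629 other genes under 10 kb the numbers were 219 and 251, then 253 and 494, then 439 and 448. Snord57, 3659 bp into Nop56, Snora81, 3302 bp into Eif4a2, and Snord47 in Gas5 were each outside in both NR libraries and inside in all 4 restimulated ones. Of the 31 genes at 4000 bp or more, Snord83b, 4827 bp into Rpl3, was the only 1 to do the same.

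**Figure D3:**
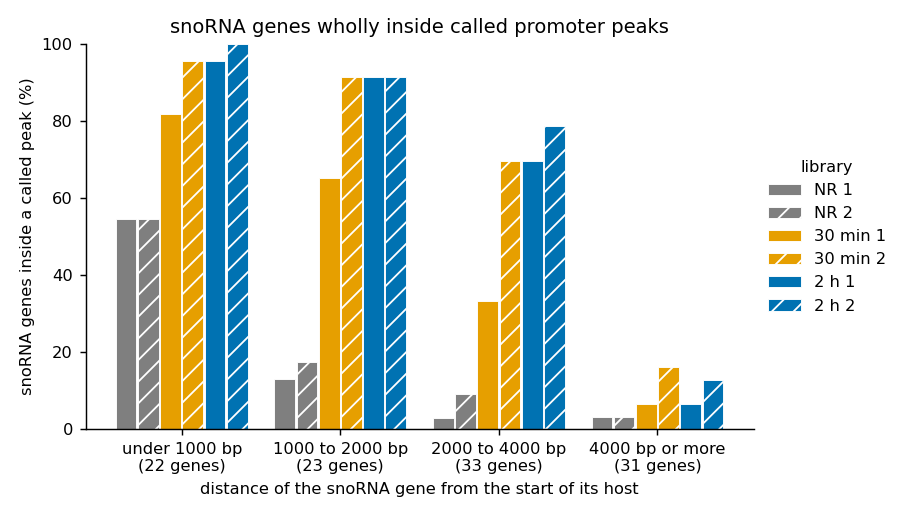
Percentage of RefSeq snoRNA genes that lie wholly inside a called promoter peak, by distance from the start of the host (number of genes under each class) and by library. Plain bars are replicates 1 and hatched bars replicates 2. In the class from 1000 to 2000 bp 3 and 4 of 23 genes were inside in NR cells and 21 and 21 at 2 h.

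Seen from the hosts, a larger share of the gene was called in restimulated than in NR cells. Of 80 hosts found by position, 57 were under 10 kb and had called DNA in at least 1 library, 17 of them noncoding and 40 protein-coding. The median host had 22.9% and 24.6% of its span called in the NR libraries, 49.1% and 100% at 30 min, and 100% and 100% at 2 h. The other 3629 genes under 10 kb with called DNA had medians of 8.23% and 11.8%, then 7.42% and 17.5%, then 14.01% and 17.6%. The sets differed in length, and the same called length is a larger share of a shorter gene. Where a peak lay over the start in all 6 libraries, the median span was 3206 bp for 52 hosts and 4690 bp for 2060 other genes. Groups did not overlap and were higher at 30 min for 48 of 57 hosts (84.2%), against 15.4% of all genes under 10 kb, and at 2 h for 52 (91.2%), against 49.8%. No host was lower without overlap, against 1.19% of those genes at 30 min and 2.09% at 2 h. The median difference was 37.4 percentage points at 30 min and 49.3 at 2 h for hosts, against 1.27 and 3.65 for the other genes.

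Noncoding and protein-coding hosts differed in where they began. Noncoding hosts had medians of 59.3% and 45.8% in the NR libraries and 100% in all 4 restimulated libraries. Protein-coding hosts had 16.9% and 21.4% in NR cells, 33.7% and 92.4% at 30 min, and 87.7% and 98.3% at 2 h. Ribosomal protein genes that host no listed snoRNA, 52 in number, had 21.2% and 21.6% in NR cells, 32.8% and 62.2% at 30 min, and 66.0% and 82.2% at 2 h. The values of those genes thus lay near those of protein-coding hosts in NR cells and in 30 min replicate 1, and lower in the other 3 libraries. The difference between these sets was not tested. Hosts over 10 kb varied. Nop58, another core C/D protein gene with Snord70 and Snord11, had 3.7% and 2.8% in NR cells, 4.4% and 6.2% at 30 min, and 5.9% and 6.5% at 2 h. Ncl, the gene of the nucleolar protein nucleolin, had 4.7% and 5.2% in NR cells, 5.0% and 9.1% at 30 min, and 12.9% and 68.2% at 2 h, so that its 2 h libraries were far apart. Tbrg4 had 3.8% and 4.9% in NR cells, 4.3% and 33.0% at 30 min, and 16.8% and 43.5% at 2 h.

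**Figure D4:**
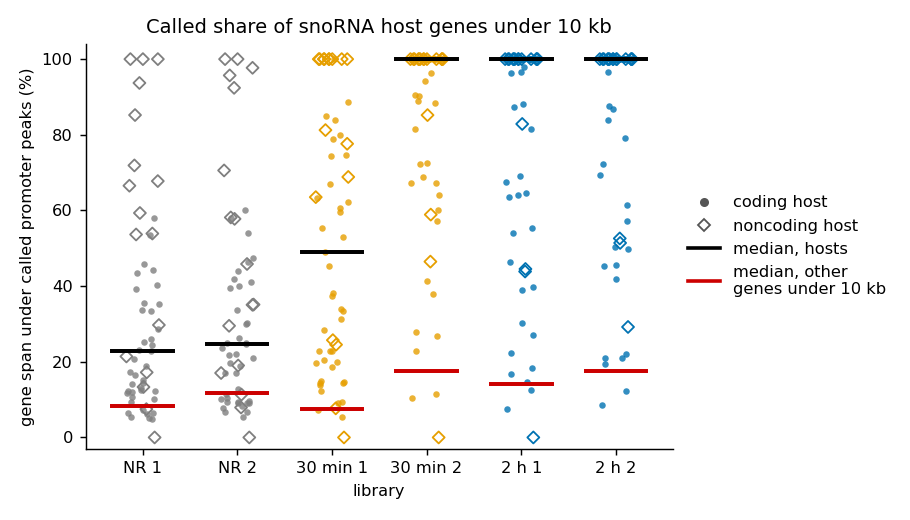
Percentage of each host gene's span under called promoter peaks, for 57 hosts under 10 kb, by library. Dots are protein-coding hosts, diamonds noncoding hosts, black lines their joint median and red lines the median of 3629 other genes under 10 kb. The black line stands at 22.9% and 24.6% in the NR libraries and at 100% in 30 min replicate 2 and both 2 h libraries.

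Along the hosts, called DNA reached further downstream while its summit stayed at the start. At 1000 bp from the start, 34.0% and 28.3% of 53 hosts that long were under a peak in NR cells, 62.3% and 94.3% at 30 min, and 90.6% and 94.3% at 2 h. At 2000 bp the values were 10.2% and 8.16% of 49 hosts, then 36.7% and 75.5%, then 77.6% and 75.5%. At 3000 bp they were 6.06% and 9.09% of 33 hosts, then 21.2% and 72.7%, then 57.6% and 66.7%. Upstream the differences were smaller: at 500 bp before the start 48.2% and 58.9% were called in NR cells, 50% and 67.9% at 30 min, and 67.9% and 75% at 2 h. For 52 hosts with a peak over the start in all 6 libraries, the median summit lay 49 and 54 bp downstream in NR cells, 66.5 and 56.5 bp at 30 min, and 66 and 61.5 bp at 2 h. Over 2060 other genes under 10 kb it lay 48 to 64 bp downstream. A summit over 1000 bp from the start was seen at 1 and 2 hosts in the 2 h libraries and at none in the other 4.

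**Figure D5:**
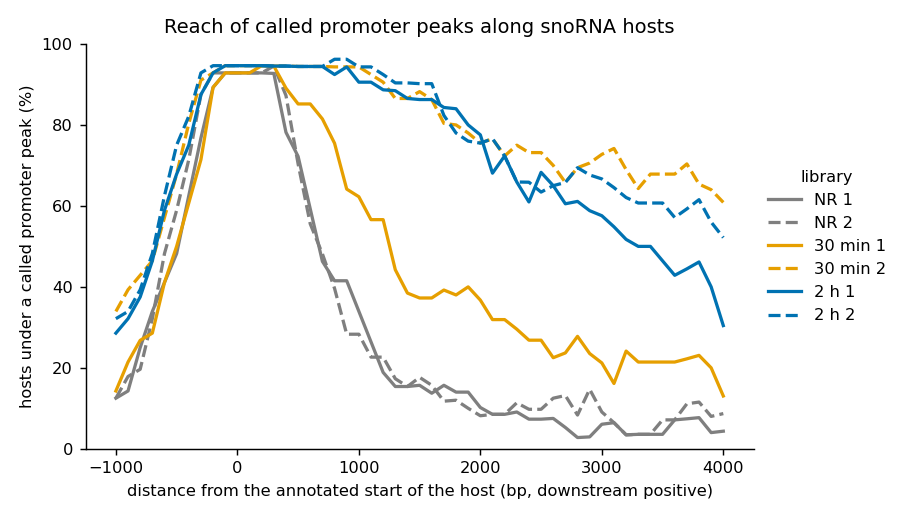
Percentage of snoRNA hosts under 10 kb that lie under a called promoter peak, by distance from the annotated start (bp), for each library. A host counts only up to its own length, so the number of hosts falls from 56 at the start to 23 at 4000 bp. The NR curves fall to 34.0% and 28.3% at 1000 bp, where both 2 h curves are above 90%. At 1000, 2000 and 3000 bp the curve of 30 min replicate 1 lies between those of the NR and the 2 h libraries.

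The median member region was 1781 and 1802 bp long in the NR libraries, whose relative depths were 1 and 8.98. At 30 min it was 2564 and 5079 bp (relative depths 2.39 and 7.09), and at 2 h 5139 and 5487 bp (3.76 and 8.43). Apart from NR replicate 2, the shallower libraries had the shorter regions, save that 30 min replicate 2 lay just under 2 h replicate 1. Over all regions the medians were 795 and 959 bp, 770 and 1210 bp, and 1079 and 1266 bp. Member peaks over 5 kb numbered 0 and 0 in the NR libraries, 4 and 23 at 30 min, and 22 and 25 at 2 h. The part of depth in these lengths was not tested.

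Some regions at snoRNA genes were called only after restimulation, though their hosts were partly called in NR cells. Among 5 regions with a peak in both 2 h libraries and neither NR library (3.03% of all regions), those at Rps3 (Snord15b), Tbrg4 (Snora5c) and Rps3a1 (Snord73a) are at protein-coding hosts and 2 lie at Snord93 in the noncoding gene 2700038G22Rik. Called shares of these hosts in the NR libraries were 10.2% and 9.6%, 3.8% and 4.9%, 11.7% and 10.1%, and 7.5% and 7.9%, in that order. The Rps3 region around Snord15b had 644 and 4600 bp at 2 h and no peak in NR cells, and the Tbrg4 one had 239 and 3073 bp. None had a peak in 30 min replicate 1 and all had one in 30 min replicate 2, with 6217 bp at Rps3 and 2465 bp at Tbrg4. None passed the test. Snora28 in Eif5 and Snord37 in Eef2, whose names also appeared at 2 h, had short peaks of 233 to 567 bp and 320 to 447 bp in the 2 h libraries, at the 1.7th to 6.8th percentile of fold enrichment. Snora41 in Eef1b2 and Snora52 in Rplp2 had 5536 and 4509 bp and 2621 and 2547 bp at 2 h under names not used in NR cells, where their regions had 935 and 1135 bp and 1063 and 1175 bp. Of all 70 symbols, 13 had a peak in 1 library only and were not tested.

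The rank of a peak within its own list separates strong from weak members. Peaks with the name of a noncoding host had a median percentile of fold enrichment between 92.4 and 98.0 in the 6 libraries. Those with a snoRNA name had medians of 69.6 and 58.5 in the NR libraries, 88.8 and 83.4 at 30 min, and 95.6 and 88.8 at 2 h, over different sets of names in lists of different lengths. Snord104 stood at the 98.6th to 99.9th percentile in every library. Snora44 and Snora81, small named peaks inside Snhg12 and Eif4a2 in NR cells, stood at the 8.6th and 2.6th and at the 5.9th and 10.7th percentile.

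Between 2 h and 30 min no member differed by the test. Of 57 members by name and 57 regions, 0 passed in either direction, as did 0 of all genes and regions (limma; 513 of 9908 genes and 517 of 10261 regions had an unadjusted p under 0.05, of which 3 and 0 were members). Groups did not overlap and were longer at 2 h for 13 of 57 regions (22.8%), against 17% of all regions, and shorter for 0, against 0.702%. By name the counts were 9 longer (15.8%, against 17% of all) and 0 shorter (against 0.727%). By called share of the host, 5 of 57 (8.77%) were higher without overlap at 2 h, against 17.6% of genes under 10 kb, and 0 were lower, against 1.3%. The median log2 change by region was 0.09, against -0.01 over all regions. These comparisons rest on 30 min libraries that are far apart: without 30 min replicate 2, 6 names and 2 regions passed.

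Genes that encode the proteins of snoRNA particles gave no call by name. Of 9 listed core proteins 8 were tested by name, among them Fbl (the ribose methylase fibrillarin), Dkc1 (the pseudouridine synthase dyskerin), Nop58, Nhp2 and Gar1, and 0 passed in any comparison. Their median log2 change was 0.23 at 30 min and 0.32 at 2 h, against -0.04 and -0.03 over all genes. By position, where a change of name does not count, 8 had a value, 0 passed, and the medians were 0.25 and 0.56. Nop56, whose region passed the test above, is also on this list, and most of its restimulated peaks bore the name Snord57. Its log2 change by position was 1.28 ± 0.19 at 30 min and 1.23 ± 0.19 at 2 h (limma, adjusted p = 0.101 and 0.0845). Fbl had 1386 and 2543 bp at 30 min and 1879 and 2229 bp at 2 h, against 1123 and 1709 bp in NR cells. Dkc1 had 852 and 1554 bp at 30 min and 1363 and 1674 bp at 2 h, against 870 and 1049 bp. Gar1, an H/ACA core protein gene, had 999 and 2164 bp at 30 min and 2014 and 2383 bp at 2 h, against 517 and 903 bp, and missed the test (limma, adjusted p = 0.246 and 0.116 by position). Of 16 listed assembly and processing factors 13 were tested, 0 passed, and their median was -0.09 at 30 min and 0.28 at 2 h by name, or -0.09 and 0.16 by position. Among 35 listed protein-coding hosts, 27 had a value by position and 27 were positive in both comparisons with NR, with medians of 0.85 and 1.01 against -0.03 and -0.03 over all genes. Of these Rpl23a alone passed, with 1996 and 2993 bp at 30 min and 2938 and 3103 bp at 2 h, against 555 and 730 bp in NR cells (log2 change 1.64 ± 0.15 and 1.61 ± 0.15, adjusted p = 0.0254 and 0.0274). By name 25 of those hosts were tested, 13 were positive in each, and 0 passed.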

How the data were processed

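RNA polymerase II ChIP-seq peaks were read from 6 libraries, 2 per group. Per the submitters' processing notes, BWA 0.7.13, Picard 1.119, MACS2 2.1.0 and mm10 were used, with no role or order given. The deposited promoter tables hold, per the file headers and values, a pileup signal (coverage), a fold ratio over background and the −log10 of p and q, and they were called per library. Their gene names come from a tool not given in the sources used here. Replicates 1 hold whole pileups and replicates 2 scaled ones. Relative depth is the lowest background pileup, unscaled, and assumes like fragment lengths. The lists hold no read counts, so intervals from counting could not be given.

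Called bp per name and per merged region (overlap of at least 1 bp) were taken as log2(bp + 100), which understates the change of short features. Values were centred per library on the median of features with a peak in all 6. Features in at least 2 libraries were fitted with limma 3.58.1 in R 4.3.3 (trend, group only, all 6 libraries), with Benjamini-Hochberg adjusted p under 0.05 over all features as the threshold, and tested on simulated data. With 2 libraries against 2 no permutation can give a p under 0.333. Hosts are RefSeq genes under 200 kb that contain the snoRNA gene. Called shares and snoRNA positions use RefSeq coordinates of GRCm38.p6. Named were all noncoding hosts, members past the threshold, those gained or lost, and the 10 longest. The members and lists were chosen with earlier results of these data known. Other pseudocounts, centring, filters, thresholds, list lengths, fits and left-out libraries were tried. The H3K36me3 and input libraries were not analysed here. Results at some loci are not reported here.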

Additional observations from a re-analysis of the deposited data

How the results depend on the processing

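Called members by name numbered 6 (30 min against NR), 8 (2 h against NR) and 0 (2 h against 30 min), and called regions 1, 2 and 0. None of the called members changed direction in any alternative. Without centring 2 of 57 regions changed sign at 30 min (Zfas1 and Snhg20) and 3 at 2 h (Zfas1, Snhg8 and Snord104), none of them called. By position 3 and 3 members passed. With a pseudocount of 1000 bp 13 names passed at 2 h, and 4 and 7 regions at 30 min and 2 h, and with 10 bp 1 region passed at 2 h. No region passed at 30 min without centring, with the stricter peak threshold, with only the 4 libraries compared or with the replicate block, where 5 and 9 names and 2 regions at 2 h passed. At 2 h 1 region passed with the stricter threshold, 7 with quantile normalisation, and 11 regions and 15 names with only the 4 libraries. Lists of equal length gave 2 and 4 regions, and no filter gave 2 at 30 min. Leaving out 1 library at a time gave 1 to 11 names at 30 min, 1 to 17 at 2 h and 0 to 6 at 2 h against 30 min, and 0 to 5, 0 to 10 and 0 to 2 regions. The lone library of a group was assumed to vary like the others. Without both NR replicate 1 and 30 min replicate 1, an alternative chosen after seeing the data, 14 and 16 names and 0 and 7 regions passed. The cause of these shifts was not tested. Same-numbered libraries deviated together (correlation 0.26 to 0.44), but 2 numbers do not establish a pairing. The number of summits gave no usable fit, since most features hold 1 peak in each library.

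Snord2 kept its call in every alternative except by position. Members with a peak in every library included numbered 19 to 24 by name and 43 to 47 by region in every setting.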
